A study of Mus musculus with 117 samples.

Results

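Integrins and cadherins are the receptor families with which cells hold to the matrix and to each other. They comprised 51 of the 27179 genes counted in this study of mouse spinal cord, and were taken as all protein-coding genes whose symbol starts with Itga or Itgb followed by a number or letter, without Itgb1bp and Itgb3bp, or is Cdh followed by a number only. The members were 28 integrins (18 alpha and 10 beta chains, the beta-like genes Itgb2l and Itgbl1 among them) and 23 cadherins (5 of type I, 13 of type II and 5 others).

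Astrocyte RNA was obtained with RiboTag, in which Cre recombinase switches on an HA-tagged form of the ribosomal protein Rpl22, and an antibody to HA then pulls the ribosomes of Cre-expressing cells, with the mRNA bound to them, from tissue homogenate. The solution left after precipitation was sequenced as flow-through, which holds RNA of the remaining cells together with any astrocyte RNA that was not bound. Both Cre lines were C57BL/6 mice carrying RiboTag, and those of the Aldh1l1 line were young adults. In the Aldh1l1-CreERT2 line, in which the Cre is inducible by tamoxifen and driven by an astrocyte promoter, astrocyte and flow-through libraries were made from uninjured cord (n = 4) and at 2 d (n = 5), 5, 14, 28, 42 and 70 d (n = 4 each) after spinal cord injury (SCI), all labelled female apart from 1 flow-through library at 5 d whose sex label reads male. A further 4 male mice were sampled at 5 d and 4 at 14 d. In the 73.12 GFAP Cre line, written mGfap below, the Cre is not inducible and marks every cell whose ancestors used the Gfap promoter. Its astrocyte libraries came from uninjured mice at P0 (n = 4), P3 (n = 3), P7 (n = 3), P14 (n = 5), P21 (n = 4), P35 (n = 4) and P63 (n = 5) and from females at 14 d after SCI (n = 5), with flow-through at P63 and 14 d. The P63 group mixed 3 males and 2 females, and the P0 group was male.

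Integrins are heterodimers of an alpha and a beta chain that bind matrix proteins such as laminin, collagen, fibronectin and vitronectin, or counter-receptors on other cells, and link them through talin and kindlin to actin. Classical cadherins bind the same kind of cadherin on a neighbouring cell in the presence of calcium and link it through catenins to actin. Astrocytes are known for integrins of the av and b1 groups at the vascular basal lamina and for N-cadherin (Cdh2) at contacts between cells, whereas the b2 integrins are restricted to leukocytes, including microglia.

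The 70 astrocyte libraries held 67253656 to 128400518 counted reads (median 93933978) and the 47 flow-through libraries 40710428 to 136008399 (median 97467271). In uninjured cord the summed level of 7 astrocyte markers was 36718 to 40037 counts per 1000000 (CPM) in astrocyte libraries and 1748 to 2156 CPM in flow-through, and all 7 were above 3 counts in each group. The 8 microglia and macrophage markers summed to 52.1 to 108 CPM in uninjured astrocyte libraries, 1509 to 2581 at 2 d, 14989 to 19511 at 5 d, 11177 to 17080.1 at 14 d and 1414 to 4512 at 70 d, and all 8 rose at 2, 5 and 70 d. In bulk RNA, fewer cells of a type and less RNA per cell cannot be told apart. The labels number the libraries of a group, and an astrocyte and a flow-through library with the same number come from the same mouse.

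In uninjured astrocytes the members with the highest level per length were the integrin beta chains Itgb5 and Itgb8 and the cadherin Cdh20. Levels per length are in FPKM, which is CPM divided by exon length in kilobases. Itgb5, a vitronectin receptor chain that pairs with Itgav, stood at 65.8 ± 7.03 FPKM (SD, n = 4). Itgb8, which with Itgav binds latent TGF-b, stood at 39.9 ± 14.3 and the type II cadherin Cdh20 at 37.7 ± 4.79. They were followed by Itgb1, the shared partner of most matrix-binding alpha chains (31.4 ± 2.06), Cdh22 (20.3 ± 2.44), Itgav (18.3 ± 2.64), Cdh2 (17.6 ± 2.72), the laminin-binding Itga6 (13.9 ± 2.63), Cdh11 (13.1 ± 1.48), Cdh10 (10.5 ± 1.28) and Itga7 (8.98 ± 1.28). In this order Itgb5 did not overlap with Itgb8, Itgb1 not with Cdh22 and Itga7 not with the next member, Itgb4, whereas the libraries of the other neighbours down to Itga7 overlapped. Of the 51 members, 18 exceeded a mean of 1 FPKM in uninjured astrocytes and 28 did so at 5 d after SCI.

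**Figure D1:**
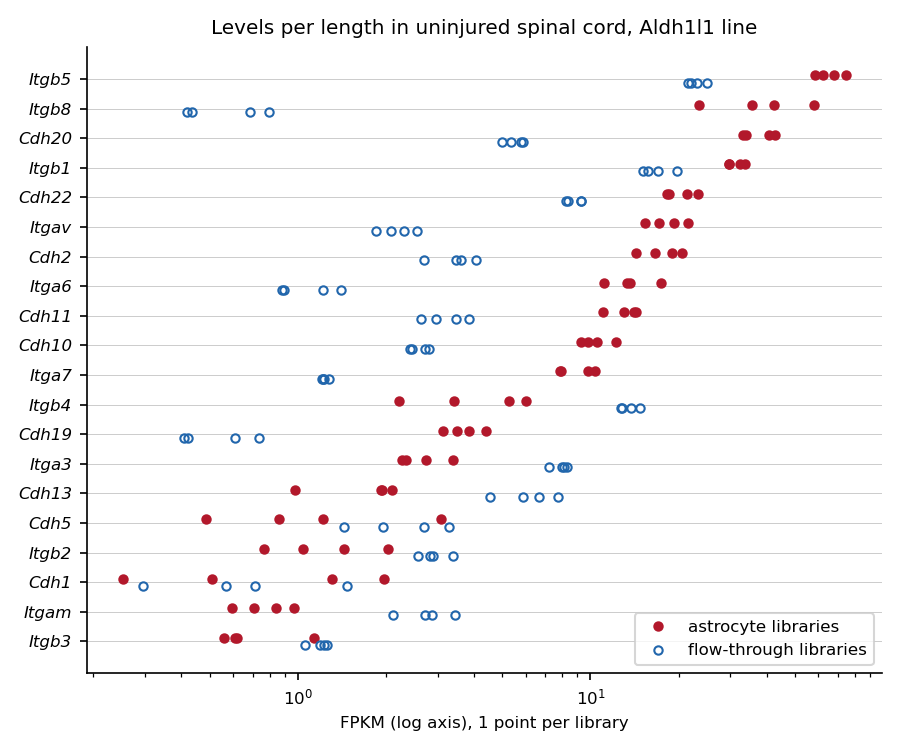
Levels per length (FPKM, log axis) of the 20 members with the highest mean in uninjured astrocyte libraries of the Aldh1l1 line, 1 point per library, with 4 astrocyte (filled) and 4 flow-through (open) libraries. Itgb5 lies highest in astrocytes, Itgb8 has the widest gap to flow-through, and Itgb4, Itga3, Cdh13, Itgb2 and Itgam lie lower in astrocytes than in flow-through.

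The first comparison asked which members were enriched in uninjured astrocytes over flow-through. Here and below a member is called where the edgeR quasi-likelihood test gives a Benjamini-Hochberg adjusted p (FDR) under 0.01 over all genes tested. Of 49 members tested, 12 were higher in astrocytes and 19 lower, beside 30.7% and 31.3% of all genes. Those higher were 6 integrins (Itgb8, Itga6, Itgav, Itga7, Itgb5, Itgb1) and 6 cadherins (Cdh19, Cdh20, Cdh2, Cdh10, Cdh11, Cdh22). Itgb8 measured 73, 110.0, 131 and 179 CPM in the 4 astrocyte libraries and 1.29, 1.35, 2.12 and 2.46 in flow-through. The lowest astrocyte library thus lay far above every flow-through library, and the level was 68.9-fold higher (log2 fold change 6.11 ± 0.37 (SE), edgeR adjusted p = 4.97e-07). The next in size were Itga6 (12.7-fold, edgeR adjusted p = 1.18e-08) and Itgav (8.42-fold, edgeR adjusted p = 1.37e-09). Cdh18, a type II cadherin, was the called member with the greatest depletion (17.9-fold lower, edgeR adjusted p = 1.18e-08), and Cdh8 and Cdh13 were 7.78-fold and 3.55-fold lower (edgeR adjusted p = 1.84e-07 for Cdh8 and edgeR adjusted p = 3.8e-05 for Cdh13). The 4 neuron markers stood beside them at 207 to 259.9 CPM in astrocyte libraries and 3700.1 to 4206 in flow-through, and their part in these differences was not tested. Across uninjured cord and the 6 times after SCI, 9 members were higher in astrocytes at each, namely Itgav, Itgb8, Itga6, Itga7, Cdh2, Cdh10, Cdh19, Cdh20 and Cdh22, and no member was lower at each. Of the genes tested in all 7 comparisons, 44 of them members, 11.5% were higher and 8.5% lower in each.

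The time course compared astrocyte libraries at each time with uninjured ones. At 5 d, integrins mainly rose and cadherins mainly fell. Of 49 members tested, 16 were higher at 5 d and 13 lower, beside 28.7% and 28.1% of all genes, so that the members as a whole were near the background. Among the integrins 14 of 28 rose and 3 fell (median log2 fold change 1.43), and among the cadherins 2 of 21 rose and 10 fell (median -0.73), beside a median of -0.02 for all genes. Of the 12 type II cadherins tested, 8 fell and 0 rose, and both cadherins that rose, Cdh13 and Cdh26, belong to the 5 others.

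At 2 d, 14 members were higher and 12 lower than in uninjured astrocytes (all genes 30.2% and 29.9%), with 13 integrins and 1 cadherin rising. At 14 d, 20 were higher and 9 lower (all genes 24.5% and 22.8%). By 28 d 17 were higher with 9 lower (22.8% and 19.1% of all genes), by 42 d 17 with 8 (23.3% and 20%), and by 70 d 15 with 11 (23.9% and 21.5%). Each time shares the 4 uninjured libraries. Called higher at all 6 times were 11 integrins (Itga1, Itga2b, Itga3, Itga4, Itga5, Itgal, Itgam, Itgax, Itgb1, Itgb2, Itgb7), and called lower at all 6 were Cdh10, Cdh11, Cdh20 and Itgb8. These are 11 and 4 of 49 members tested, beside 10.6% and 9.38% of all genes called so at all 6. Itgav, Itgb5 and Itgbl1 were called in opposite directions at different times. Called at none of the 6 times were Cdh1, Cdh5, Cdh15, Cdh17, Cdh23, Itga10, Itgad and Itgb2l, and Cdh9 and Cdh16 were too low to be tested.

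**Figure D2:**
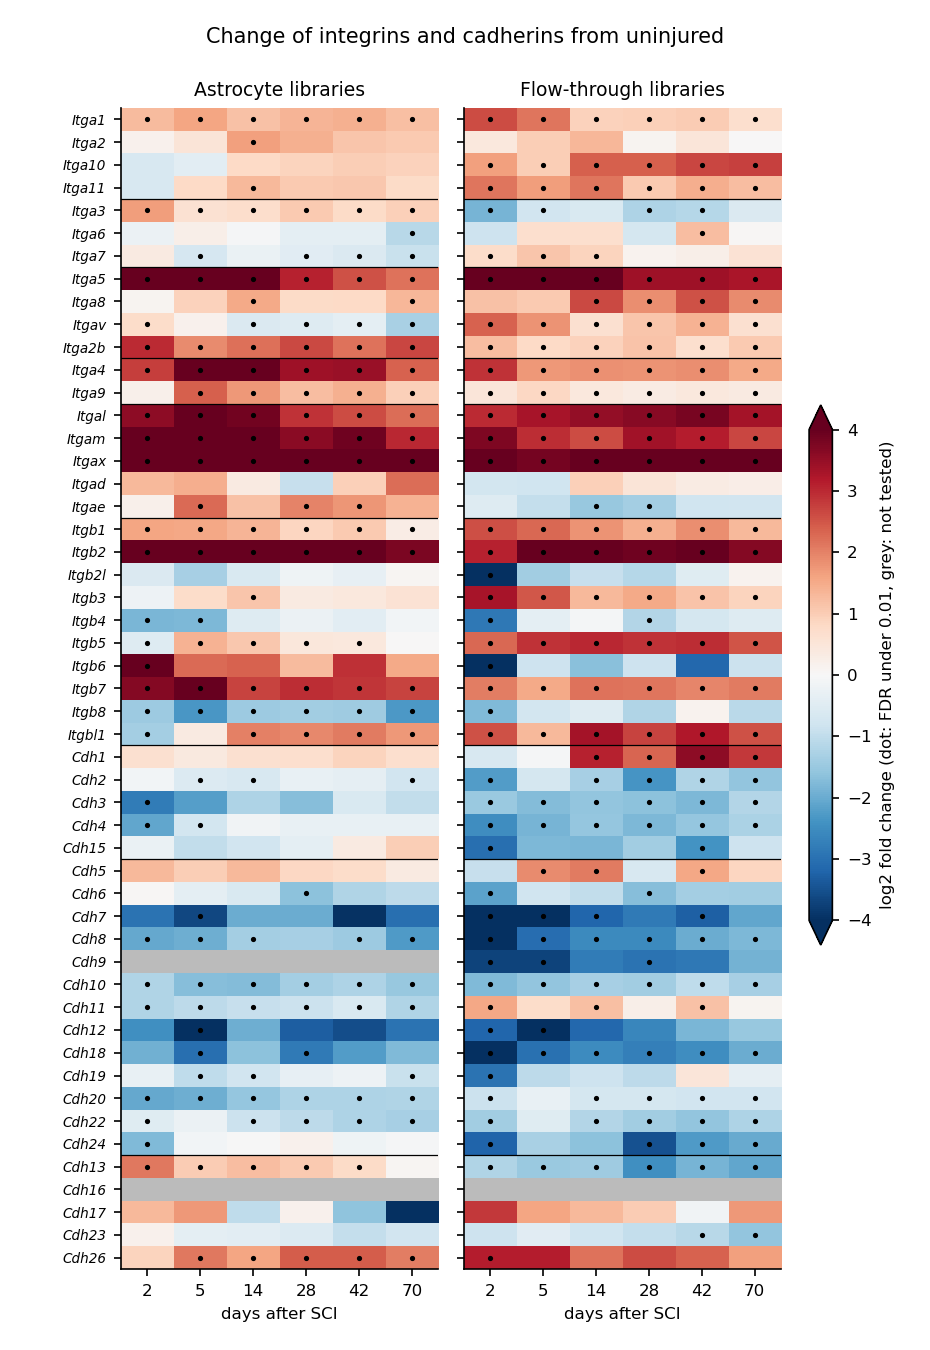
Log2 fold change from uninjured of the 51 members (rows, in groups by role) at the 6 times after SCI, in astrocyte (left) and flow-through (right) libraries of the Aldh1l1 line, with a dot where a member was called at FDR under 0.01 and grey where it was not tested. Itgb2, Itgam, Itgax, Itgal and Itga5 stay red throughout on both sides, Cdh10, Cdh11, Cdh20 and Itgb8 stay blue in astrocytes, and Itgav and Cdh13 differ in direction between the sides at several times.

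Of the members that rose at 5 d, the leukocyte integrins Itgax, Itgb2 and Itgam had the 3 largest fold changes. The b2 chain Itgb2 pairs with Itgal (LFA-1), Itgam (CR3), Itgax (CR4) or Itgad, and the pairs bind ICAMs and complement fragments on leukocytes. Itgb2 measured 2.28, 3.09, 4.27 and 6.04 CPM in the uninjured astrocyte libraries, 397, 430.2, 436 and 479.6 at 5 d, and by 70 d 32.5, 35.8, 67 and 77.9. Every library at 5 d lay far above every uninjured one, and those at 70 d fell back part of the way but did not overlap with uninjured. The level at 5 d was 109-fold that of uninjured (log2 fold change 6.77 ± 0.40 (SE), edgeR adjusted p = 1.7e-13), and at 70 d 13.7-fold (edgeR adjusted p = 2.5e-09).

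Itgam, the alpha chain of CR3, measured 2.8, 3.32, 3.94 and 4.54 CPM in uninjured astrocyte libraries, 136, 165, 202, 204 and 302 at 2 d, 273, 293, 322 and 360.1 at 5 d, and by 70 d 19.4, 26.7, 31.5 and 40.4. It was high from 2 d on, was 83.9-fold higher at 5 d (log2 fold change 6.39 ± 0.30 (SE), edgeR adjusted p = 1.6e-15) and remained apart from uninjured at 70 d (8.13-fold, edgeR adjusted p = 5.22e-10). Itgax, the alpha chain of CR4, measured 0.0407, 0.104, 0.341 and 0.365 CPM uninjured, 51, 52.1, 55.3 and 58.6 at 5 d, 58.1, 61.5, 71.9 and 87.8 at 14 d, and by 70 d 6.76, 15.1, 24.6 and 28.1. It had the largest fold of any member at 5 d (248-fold, log2 fold change 7.95 ± 0.48 (SE), edgeR adjusted p = 2.41e-13) and its highest libraries at 14 d, with no overlap with uninjured at any of these times. Itgal, the alpha chain of LFA-1, measured 0.672, 0.896, 1.36 and 1.42 CPM uninjured and 17.3, 19.6, 21.6 and 22.9 at 5 d, again without overlap (18.4-fold, log2 fold change 4.20 ± 0.34 (SE), edgeR adjusted p = 1.8e-11). Itgad, the remaining partner, stood at 0.0398 to 0.222 CPM in the 5 d libraries and was not called at any time. Itgae, the alpha chain that binds E-cadherin on epithelial cells, measured 0.442, 0.454, 0.539 and 0.821 CPM uninjured and 2.45, 2.45, 2.69 and 3.6 at 5 d, where it was 4.85-fold higher (edgeR adjusted p = 0.000114). Its partner Itgb7, known from lymphocyte homing, measured 0.415, 0.936, 1.71 and 2.67 CPM uninjured and 23.6, 25.6, 28.4 and 28.8 at 5 d (18.1-fold, edgeR adjusted p = 1.74e-10), and stayed higher at 70 d (8.07, 8.82, 9.86 and 10.5 CPM, edgeR adjusted p = 4.07e-07).

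All 8 microglia and macrophage markers also rose in the astrocyte libraries at 5 and 70 d. Their median log2 fold change was 6.52 at 5 d and 4.93 at 70 d, and none was at or under 3 counts in every library of a group. The 6 neutrophil markers summed to 104 to 429 CPM uninjured, 289 to 814 at 2 d and 58.3 to 242 at 5 d. In flow-through these neutrophil markers summed to 13.3 to 62.6 CPM uninjured, 32 to 132 at 2 d and 12.3 to 51 at 5 d. The part of such cells in the leukocyte integrins was not tested. Against flow-through at 5 d, 3 of the 8 markers were higher in astrocyte libraries and 3 lower (median log2 difference 0.10). In sum the 8 markers were higher in astrocyte libraries, at 14989 to 19511 CPM against 4653 to 5873 in flow-through. Itgb2, Itgam, Itgax and Itgal were higher in the astrocyte libraries as well. Itgb2 measured 134, 134, 139 and 148 CPM in flow-through at 5 d and was 2.93-fold higher in astrocyte libraries (edgeR adjusted p = 8.29e-10), and Itgax measured 5.71, 6.12, 6.49 and 6.83 CPM and was 8.04-fold higher (edgeR adjusted p = 9.55e-12). At 70 d the order had turned for Itgam, which was 2.86-fold lower in astrocyte libraries than in flow-through (edgeR adjusted p = 8.12e-05), and for Itgax (2.87-fold lower, edgeR adjusted p = 0.00646). The call for Itgax was lost without each of 70 d replicates 2 and 3 and 70 d flow-through replicates 1, 3 and 4 (adjusted p 0.0107 to 0.0247) and with no low-count filter (log2 fold change -1.52, edgeR adjusted p = 0.0166).

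The promoters of 4 members called at 5 d are given to show the sequence around a start of members that moved in opposite directions, namely Itgam, Itgax and Itga5, which rose, and Cdh20, which fell. Each is RefSeq sequence of GRCm38.p6, from 250 bases before to 50 bases after a start given for the gene, 5′ to 3′ on the gene's strand. For Itgam and Itga5 this start is the outer end of the gene as annotated. The annotated genes of Itgax and Cdh20 begin earlier, at chr7:128129526 and chr1:104768340. More than 50 bases of these 2 stretches therefore lie within the gene. Capitals mark matches on either strand to GAGGAAG (an ETS motif), TGAGTCA (an AP-1 motif) or GGGCGG (a GC box), which do not overlap each other in letters. These are held by 13.6%, 5.2% and 35.7% of the 32851 promoters of this length. The Itgam promoter lies at chr7:128062390-128062689 on the plus strand and holds 2 matches to GAGGAAG and 1 to GGGCGG.
Itgam: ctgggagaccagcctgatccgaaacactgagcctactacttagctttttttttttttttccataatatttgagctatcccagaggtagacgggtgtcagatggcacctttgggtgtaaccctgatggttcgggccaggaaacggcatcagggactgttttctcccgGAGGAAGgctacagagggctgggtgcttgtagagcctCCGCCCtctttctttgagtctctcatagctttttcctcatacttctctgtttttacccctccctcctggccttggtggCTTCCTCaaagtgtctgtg
The Itgax promoter lies at chr7:128129300-128129599 on the plus strand and holds 1 match to TGAGTCA.
Itgax: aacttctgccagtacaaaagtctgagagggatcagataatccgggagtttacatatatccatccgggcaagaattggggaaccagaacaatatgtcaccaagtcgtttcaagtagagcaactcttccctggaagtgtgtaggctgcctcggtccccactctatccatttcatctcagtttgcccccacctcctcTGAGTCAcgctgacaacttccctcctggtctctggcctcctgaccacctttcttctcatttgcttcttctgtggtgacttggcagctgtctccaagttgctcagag
The Itga5 promoter lies at chr15:103366742-103367041 on the minus strand and holds 2 matches to GGGCGG.
Itga5: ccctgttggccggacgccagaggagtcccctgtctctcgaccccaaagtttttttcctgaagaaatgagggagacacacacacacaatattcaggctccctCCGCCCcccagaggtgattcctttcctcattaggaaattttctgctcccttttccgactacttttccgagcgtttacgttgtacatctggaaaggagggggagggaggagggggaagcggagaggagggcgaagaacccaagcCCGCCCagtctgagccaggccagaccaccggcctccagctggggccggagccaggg
The Cdh20 promoter lies at chr1:104768270-104768569 on the plus strand and holds no match to any of the 3 motifs.
Cdh20: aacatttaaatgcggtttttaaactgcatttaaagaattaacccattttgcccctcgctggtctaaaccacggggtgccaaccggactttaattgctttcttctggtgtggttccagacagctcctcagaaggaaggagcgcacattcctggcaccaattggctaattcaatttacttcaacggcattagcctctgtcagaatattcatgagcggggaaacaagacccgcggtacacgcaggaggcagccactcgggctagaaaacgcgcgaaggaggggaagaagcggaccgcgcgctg
Promoters were given for 33 of the 51 members, 37 promoters in all, of which 10 held GAGGAAG, 2 held TGAGTCA (Itga9 and Itgax) and 15 held GGGCGG. A match describes these letters only.

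The RGD-binding group holds the fibronectin receptor chain Itga5, the vitronectin receptor chain Itgav, Itga8 and the platelet chain Itga2b. Itga5 measured 2.27, 2.96, 3.13 and 3.84 CPM in uninjured astrocyte libraries, 108, 126, 127, 131 and 164 at 2 d, 99.5, 109, 118 and 118 at 5 d, and by 70 d 13.1, 13.5, 14 and 14. All libraries at 2 and 5 d lay above 99 CPM where none of the uninjured reached 4, and the level was 43-fold higher at 2 d (log2 fold change 5.43 ± 0.16 (SE), edgeR adjusted p = 4.15e-21). It was 35.7-fold higher at 5 d (log2 fold change 5.16 ± 0.16 (SE), edgeR adjusted p = 6.62e-20) and still 4.48-fold at 70 d (edgeR adjusted p = 8.44e-13). Its partner Itgb1 was already abundant, with 124, 124, 136 and 142 CPM uninjured, 377, 382, 393 and 401 at 5 d, and by 70 d 145, 157, 169 and 171. Itgb1 rose by a smaller factor from this higher level (2.9-fold at 5 d, log2 fold change 1.53 ± 0.08 (SE), edgeR adjusted p = 1.61e-15), and at 70 d the libraries still did not overlap with uninjured (1.22-fold, edgeR adjusted p = 0.00287). That call at 70 d was lost without each of uninjured replicates 3 and 4 and 70 d replicates 1 and 4 (adjusted p 0.0107 to 0.0129), and with only the groups compared in the fit (log2 fold change 0.27, edgeR adjusted p = 0.0243).

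Itgav moved both ways. It measured 141, 157, 176 and 197 CPM uninjured, 241, 243, 285, 293 and 318 at 2 d, 166, 187, 207 and 216 at 5 d, and by 70 d 51.6, 66.7, 75.5 and 78. The 2 d libraries were all above uninjured (1.65-fold, edgeR adjusted p = 6.25e-06). Those at 5 d overlapped with it (log2 fold change 0.18 ± 0.13 (SE), edgeR adjusted p = 0.205), and those at 70 d were all below (2.46-fold lower, edgeR adjusted p = 1.74e-09). Itgb5 went the other way at first, with 204, 217, 237 and 259.7 CPM uninjured, 145, 149, 154, 159 and 185 at 2 d and 555, 603, 637 and 641 at 5 d. It fell at 2 d (1.44-fold lower, edgeR adjusted p = 0.000215) and was 2.61-fold higher at 5 d (log2 fold change 1.38 ± 0.13 (SE), edgeR adjusted p = 8.22e-11), each without overlap with uninjured. At 70 d the groups overlapped (184, 219, 248 and 267 CPM, edgeR adjusted p = 0.956). Itgb8 fell at every time, from 73, 110.0, 131 and 179 CPM uninjured to 17, 24.8, 26.9 and 31.4 at 5 d, and by 70 d 16.4, 21.1, 30.6 and 32.7. Uninjured libraries varied widely but all lay above both groups (5.03-fold lower at 5 d, log2 fold change -2.33 ± 0.34 (SE), edgeR adjusted p = 1.6e-06). Itgb3, which forms the vitronectin receptor with Itgav and the fibrinogen receptor with Itga2b, was called at 14 d only (2.14-fold higher, edgeR adjusted p = 0.000826). Itga2b rose at every time, from 1.92 ± 0.537 (SD, n = 4) CPM uninjured to 15 ± 2.46 (SD, n = 5) CPM at 2 d (7.85-fold, edgeR adjusted p = 1.95e-12) and 12.1 ± 3.2 (SD, n = 4) CPM at 70 d. Itga8, which binds nephronectin, was called higher at 14 and 70 d, at 1.56 to 3.64 and 0.925 to 3.29 CPM against 0.597 to 0.906 uninjured. The call at 70 d was lost without each of uninjured replicate 2 and 70 d replicate 1 (adjusted p 0.0123 to 0.0353) and with only the groups compared in the fit (log2 fold change 1.29, edgeR adjusted p = 0.0251).

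Itga4 and Itga9 bind VCAM1, osteopontin and the alternatively spliced part of fibronectin. Itga4 measured 0.834, 1.0, 1.02 and 1.76 CPM uninjured, 5.38, 7.33, 7.42, 8.39 and 10.8 at 2 d, 26.7, 30.5, 31 and 35.4 at 5 d, and by 70 d 3.28, 5.48, 6.37 and 8.35. It reached its highest libraries at 5 and 14 d (26.3-fold at 5 d, log2 fold change 4.72 ± 0.33 (SE), edgeR adjusted p = 8.35e-13) and none of these groups overlapped with uninjured. Itga9 measured 2.79, 3.35, 4.85 and 6.27 CPM uninjured, 4.37, 4.45, 5.14, 5.35 and 5.52 at 2 d and 20.2, 21.2, 22.8 and 27.1 at 5 d. The libraries at 2 d lay within the uninjured range, and those at 5 d all lay above it (5.2-fold, log2 fold change 2.38 ± 0.24 (SE), edgeR adjusted p = 9.48e-10). The microglia and macrophage markers rose in the same libraries, at 52.1 to 108 CPM in sum uninjured and 14989 to 19511 at 5 d. Their part in the rises of Itga4, Itga9 and Itga5 was not tested.

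Among the laminin-binding chains, Itga3 rose at all 6 times, with 12.1 to 18.1 CPM uninjured, 37 to 50.5 at 2 d and 23.8 to 33.8 at 70 d (3.15-fold at 2 d, edgeR adjusted p = 2.57e-12). Itga6 and Itga7 were lower by 70 d. Itga6 measured 68.8 to 108 CPM uninjured and 24.8 to 53.2 at 70 d (2.15-fold lower, edgeR adjusted p = 6.1e-05). Itga7, the partner of Itgb1 in muscle, measured 63.6 to 83.7 CPM uninjured and 32.9 to 50.1 at 70 d (1.87-fold lower, edgeR adjusted p = 6.46e-06), and for neither did the groups overlap. Itgb4, the partner of Itga6 in hemidesmosomes, measured 14.1, 21.8, 33.7 and 38.2 CPM uninjured, 7.39, 7.87, 8.06 and 8.44 at 5 d, and by 70 d 21.9, 22.7, 24.1 and 31.1. It was low at 2 and 5 d (3.45-fold lower at 5 d, log2 fold change -1.79 ± 0.31 (SE), edgeR adjusted p = 1.89e-05) and by 70 d lay within the uninjured range (edgeR adjusted p = 0.792). The 5 Schwann cell markers moved beside it, at 435 to 1690.1 CPM in sum uninjured, 164 to 319.8 at 5 d and 486 to 1069.7 at 70 d, with 4 of the 5 called lower at 5 d and none at 70 d. Their part in the level of Itgb4 was not tested. Of the collagen-binding chains, Itga1 rose at all 6 times (1.42 to 3.21 CPM uninjured, 5.74 to 7.11 at 5 d, 2.97-fold, edgeR adjusted p = 1.37e-06). Itga2 and Itga11 were called higher at 14 d only, and Itga10 was not called. Itga2 measured 0.21 to 0.997 CPM uninjured and 1.37 to 1.87 at 14 d, and lost the call without each of uninjured replicates 1, 2 and 4 and 14 d replicate 1 (adjusted p 0.0152 to 0.0256). Without uninjured replicate 3 its log2 fold change was 2.30, edgeR adjusted p = 0.000415. Itga11 measured 0.208 to 1.73 and 1.94 to 3.4 CPM, and lost it without each of uninjured replicates 3 and 4 and 14 d replicates 3 and 4 (adjusted p 0.0143 to 0.0217) and with only the groups compared in the fit (log2 fold change 1.33, edgeR adjusted p = 0.0354). The remaining beta chains were low. Itgbl1, a secreted beta-like protein, fell at 2 d and was higher from 14 d on (3.17 CPM uninjured, 1.24 at 2 d, 13.3 at 14 d). The call at 2 d was lost without each of uninjured replicates 1 and 2 and 2 d replicate 1 (adjusted p 0.0111 to 0.0322) and with only the groups compared in the fit (log2 fold change -1.34, edgeR adjusted p = 0.0268). Itgb6, the epithelial av partner, was called higher at 2 d at 0.449 to 0.817 CPM, and lost the call without each of uninjured replicates 2, 3 and 4 (adjusted p 0.0161 to 0.017). Itgb2l was not called.

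**Figure D3:**
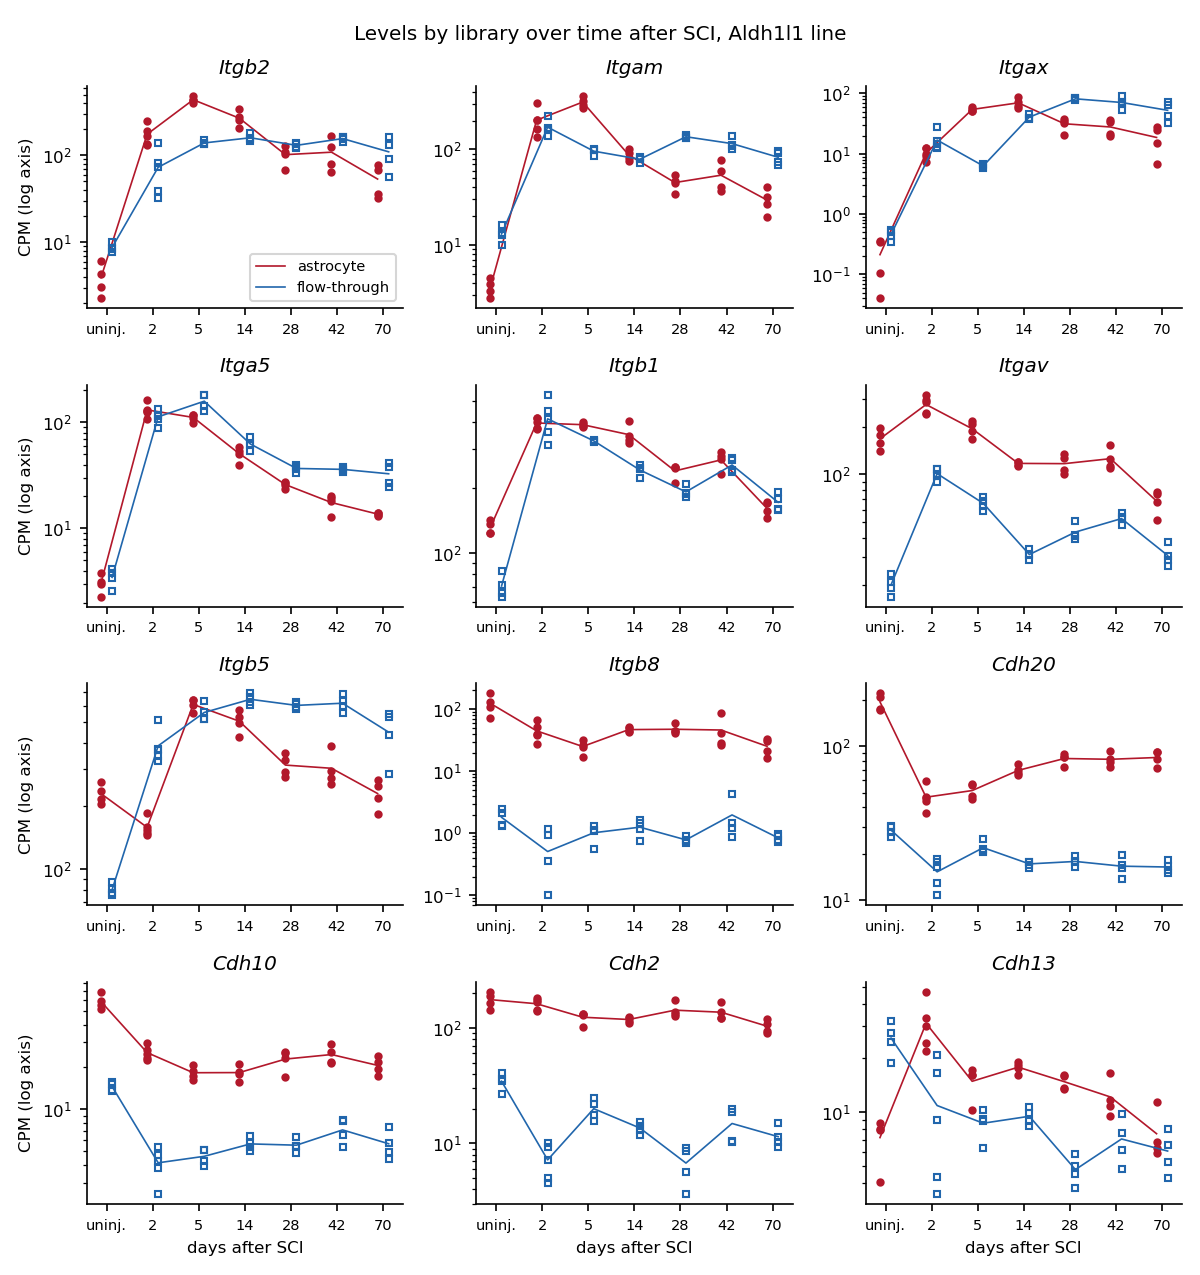
CPM by library (log axis) of 12 members in the Aldh1l1 line, uninjured and at the 6 times after SCI, with astrocyte libraries as filled circles, flow-through as open squares and lines through the group means (n = 4, and n = 5 at 2 d). Itgb2, Itgam, Itgax and Itga5 rise in both fractions, Itgav and Cdh2 lie higher in astrocytes at every time, Cdh20, Cdh10 and Itgb8 drop in astrocytes, and Cdh13 rises in astrocytes while it falls in flow-through.

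Among the cadherins, the type II members that are high in uninjured astrocytes fell after SCI. In the same libraries the 7 astrocyte markers summed to 36718 to 40037 CPM uninjured and 19690 to 27722 at 2 d. They summed to 22517 to 34894 CPM at 5 d and 45183 to 49961 at 70 d. Their part in the falls of these cadherins, of Cdh2 and of Itgb8 was not tested. Cdh20 measured 172, 176, 211 and 221 CPM uninjured, 36.7, 43.9, 46, 46.8 and 59.8 at 2 d, 45.5, 47.7, 55.8 and 57.1 at 5 d, and by 70 d 72.1, 82.2, 91.5 and 92.3. Each time lay wholly below uninjured, lowest at 2 and 5 d (3.85-fold lower at 5 d, log2 fold change -1.95 ± 0.12 (SE), edgeR adjusted p = 3.88e-14) and part of the way back at 70 d (2.3-fold lower, edgeR adjusted p = 1.67e-09). Cdh10, another type II cadherin of the nervous system, measured 52.1, 55.1, 58.8 and 68.5 CPM uninjured, 16.3, 17.2, 18.8 and 20.5 at 5 d, and by 70 d 17.2, 19.3, 21.9 and 23.8, with no overlap and little recovery (3.28-fold lower at 5 d, log2 fold change -1.71 ± 0.14 (SE), edgeR adjusted p = 4.84e-12, and 2.84-fold at 70 d). Cdh11, also known from mesenchymal cells, measured 68.8, 80.8, 87.9 and 88.7 CPM uninjured and 34.4, 38.8, 43.1 and 46.1 at 5 d (2.04-fold lower, log2 fold change -1.03 ± 0.16 (SE), edgeR adjusted p = 2.37e-06). Cdh19, a marker of the Schwann cell lineage, measured 24.3, 27.3, 30 and 34.1 CPM uninjured, 11, 14.4, 15.6 and 17.5 at 5 d, and by 70 d 13.3, 13.7, 17.6 and 17.8. It fell at 5 d without overlap (2.02-fold lower, edgeR adjusted p = 6.09e-05). Cdh22, a type II cadherin of the brain, was lower at every time but 5 d, with 125 to 160.0 CPM uninjured and 39.8 to 64.1 at 70 d (2.49-fold lower, edgeR adjusted p = 3.16e-10).

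The N-cadherin gene Cdh2 changed less than these. It measured 143, 165, 189.9 and 204 CPM uninjured, 141, 143, 167, 175 and 181 at 2 d, 102, 128, 132 and 133 at 5 d, and by 70 d 91.1, 93.2, 109 and 120.3. The 2 d libraries overlapped with uninjured, and those at 5 and 70 d all lay below it (1.45-fold lower at 5 d, log2 fold change -0.53 ± 0.13 (SE), edgeR adjusted p = 0.000489, and 1.69-fold at 70 d, edgeR adjusted p = 9.07e-06). Cdh8 and Cdh18, type II cadherins of neurons, were low in astrocyte libraries and fell further. Cdh8 measured 1.45, 2.45, 2.82 and 3.04 CPM uninjured and 0.408, 0.537, 0.741 and 0.847 at 5 d (3.91-fold lower, edgeR adjusted p = 0.000343). Cdh18 measured 0.767, 0.885, 1.18 and 1.57 CPM uninjured and 0.0553, 0.101, 0.139 and 0.249 at 5 d (8.18-fold lower, edgeR adjusted p = 0.0041), a call lost without each of uninjured replicate 4 and 5 d replicates 1, 2 and 4 (adjusted p 0.0113 to 0.0165). The 4 neuron markers moved beside them, at 207 to 259.9 CPM in sum uninjured and 57.9 to 62.6 at 5 d, with 3 of 4 called lower, and their part was not tested. Cdh4, Cdh7 and Cdh12 were also called lower at 5 d. Cdh7 lost the call without each of the 8 libraries (adjusted p 0.0101 to 0.0359), Cdh12 without each of uninjured replicates 2 and 4 and 5 d replicates 2, 3 and 4 (0.0111 to 0.0243) and Cdh4 without each of uninjured replicate 3 and 5 d replicates 2 and 3 (0.012 to 0.0211). Cdh12 was at 3 counts or fewer in every 5 d library, which puts it at least 9.71-fold lower against a floor of 3 counts per library. At 2 d Cdh3, Cdh4 and Cdh24 were called lower, and at 28 d Cdh6.

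Few cadherins rose in astrocyte libraries. Cdh13, which is attached to the membrane by a lipid anchor and has no catenin-binding tail, went from 4.06, 7.98, 8.05 and 8.73 CPM uninjured to 21.8, 24.3, 30.1, 33.3 and 46.6 at 2 d, while 5 d libraries measured 10.2, 16, 16.1 and 17.1. Each of these libraries lay above uninjured (4.34-fold at 2 d, log2 fold change 2.12 ± 0.24 (SE), edgeR adjusted p = 7.67e-09), and at 70 d the groups overlapped (edgeR adjusted p = 0.805). Cdh26, an epithelial cadherin, measured 0.0221, 0.192, 0.224 and 0.519 CPM uninjured and 0.757, 1.1, 1.17 and 1.21 at 5 d (4.35-fold, edgeR adjusted p = 0.00058). Without uninjured replicate 4, the highest of its group, its log2 fold change was 2.82, edgeR adjusted p = 4.12e-05. Cdh5, the VE-cadherin of endothelium, measured 1.96, 3.47, 4.92 and 12.4 CPM uninjured and 10.7, 10.8, 11.2 and 12.9 at 5 d, and the groups overlapped through 1 high uninjured library (edgeR adjusted p = 0.0667). The 5 endothelial markers summed to 11.6 to 22.4 CPM uninjured and 33.2 to 36 at 5 d in these libraries. The E-cadherin gene Cdh1 stood at 4.47 ± 3.46 (SD, n = 4) CPM uninjured and 5.96 ± 0.827 (SD, n = 4) CPM at 5 d and was not called at any time.

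Flow-through RNA was compared with its own uninjured libraries to set the astrocyte changes beside those of the other cells. At 2 d 20 of 50 members rose and 21 fell, beside 32.6% and 32.9% of all genes. Of the integrins 18 rose and 5 fell, and of the cadherins 2 rose and 16 fell. At 5 d the counts were 19 and 10 (all genes 27.7% and 21.8%) and at 70 d 19 and 11 (all genes 21.8% and 15.7%). Called higher at all 6 times were 17 integrins and lower at all 6 were 6 cadherins (Cdh3, Cdh4, Cdh8, Cdh10, Cdh13, Cdh18), of 50 members tested and beside 15.4% and 10.7% of all genes. No member was called in opposite directions. Cdh18 fell from 16.6, 18.7, 21.7 and 22.2 CPM in uninjured flow-through to 1.65, 2.01, 2.48 and 3.25 at 5 d, without overlap (7.98-fold lower, edgeR adjusted p = 3.77e-08). Cdh8 fell as well, with 15.9 to 21.6 CPM uninjured and 1.35 to 2.67 at 5 d (8.29-fold lower, edgeR adjusted p = 4.33e-09). The neuron markers moved beside both, at 3700.1 to 4206 CPM uninjured and 622 to 746 at 5 d, and their part was not tested. Itgb3 rose, with 6.28 to 7.51 CPM uninjured and 30.7 to 46.3 at 5 d (5.54-fold, edgeR adjusted p = 1.6e-13). Itgb5 measured 75.3, 77, 80.6 and 87.2 CPM in uninjured flow-through and 518, 520.3, 563 and 629 at 5 d, a wider rise than in astrocytes (7.36-fold, edgeR adjusted p = 3.58e-15). Itgb5, enriched in uninjured astrocytes, was not called between the fractions at 5 d (log2 difference 0.03 ± 0.09 (SE), edgeR adjusted p = 0.79) and 1.99-fold lower in astrocytes at 70 d (edgeR adjusted p = 0.00126). Cdh5 rose in flow-through at 5 d (5.8 to 13.3 CPM uninjured and 23.9 to 37.7 at 5 d, 3.67-fold, edgeR adjusted p = 0.000974), and Cdh1 was higher there from 14 d on (3.37 CPM uninjured, 14.9 to 30.8 at 70 d, edgeR adjusted p = 1.79e-05).

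The difference between the astrocyte change and the flow-through change was tested as an interaction. At 2 d it was called for 28 of 50 members, 18 with the change in astrocytes above that in flow-through and 10 with it below (all genes 30.1% and 20.6%). At 5 d it was called for 17 (10 and 7, all genes 17.7% and 10.9%), and at 70 d for 11 (4 and 7, all genes 8.8% and 8.9%). Cdh13 had a higher change in astrocytes at all 6 times. It fell in flow-through from 18.8, 24.5, 27.7 and 32.2 CPM to 6.32, 8.95, 9.18 and 10.2 at 5 d while it rose in astrocyte libraries (log2 difference 2.72 ± 0.45 (SE), edgeR adjusted p = 2.11e-06). Itga3 also moved in opposite directions, with 38.5 to 44.4 CPM uninjured and 21.1 to 25.4 at 5 d in flow-through (log2 difference 1.57 ± 0.28 (SE), edgeR adjusted p = 6.85e-06). The flow-through fall of Itga3 lost its call without each of uninjured flow-through replicates 3 and 4 and 5 d flow-through replicates 1, 2, 3 and 4 (adjusted p 0.0127 to 0.0241). Itga2b was the third member with a higher astrocyte change at all 6 times, and Itgav and Itgb5 had a lower one at all 6. Itgav rose in flow-through from 16.9, 19.1, 21 and 23.4 CPM to 58.8, 63.6, 68.4 and 72.2 at 5 d while it was not called in astrocytes (log2 difference -1.40 ± 0.17 (SE), edgeR adjusted p = 1.54e-09). Cdh20 fell further in astrocytes than in flow-through at 5 d, where it measured 25.8, 27.7, 29.9 and 30.4 CPM uninjured and 20.6, 20.7, 21.4 and 24.7 at 5 d (log2 difference -1.44 ± 0.18 (SE), edgeR adjusted p = 2.07e-09). Cdh11 was lower in astrocytes after SCI and at 24.3 to 43.2 CPM in flow-through at 5 d against 16.4 to 23.9 uninjured (log2 difference -1.55 ± 0.39 (SE), edgeR adjusted p = 0.00126). Itga5 rose in both fractions at 5 d, from 2.57, 3.39, 3.76 and 4.1 CPM to 129, 142, 181 and 182 in flow-through, and the difference between the fractions was not called (log2 difference -0.23 ± 0.21 (SE), edgeR adjusted p = 0.448). The leukocyte members Itgb2, Itgam and Itgax rose more in astrocyte libraries than in flow-through at 5 d (log2 differences 2.90, 3.65 and 4.32) and were not called for a difference at 70 d. Itgal and Itgad, the other alpha chains that pair with Itgb2, were called for a difference at no time.

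At 5 d, 19 of 46 members tested were higher in astrocyte libraries than in flow-through and 15 lower (all genes 32.4% and 32%), and at 70 d 12 and 15 of 47 (all genes 22.6% and 23.1%). Itgb8 kept the widest gap, with 17 to 31.4 CPM in astrocytes and 0.549 to 1.33 in flow-through at 5 d (22.9-fold, edgeR adjusted p = 1.43e-08). Cdh2 was 5.77-fold higher in astrocytes at 5 d (edgeR adjusted p = 5.51e-09), with 15.6, 17.7, 22 and 24.5 CPM in flow-through. Itgb3 and Itgb4 lay lower in astrocytes at both times.

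The mGfap line gave a second set of astrocyte libraries at 14 d, in which the microglia and macrophage markers were far lower. They summed to 233 to 1820.4 CPM against 11177 to 17080.1 in the Aldh1l1 line at 14 d, and all 8 were called lower in mGfap (median log2 difference -3.34). Against uninjured P63 of the same line, 18 of 49 members rose at 14 d and 4 fell (all genes 27.7% and 16.4%). Those that fell were Itgb8, Cdh10, Cdh20 and Cdh22. Those that rose included Itga5, Itgb1, Itga2b, Itga3, Itgb3, Itgb4, Cdh13, Itgb2 and 3 of the 5 leukocyte alpha chains. The other 2 leukocyte alpha chains were not called. Cdh20 measured 126, 137, 140.4, 146 and 149.6 CPM at P63 and 61.4, 72.9, 93.4, 96.5 and 101 at 14 d, without overlap (1.55-fold lower, log2 fold change -0.63 ± 0.11 (SE), edgeR adjusted p = 0.000135). Itga5 measured 1.95, 2.17, 2.26, 2.37 and 2.45 CPM and 15.7, 16.6, 16.8, 18.9 and 21.2, again without overlap (8.49-fold higher, log2 fold change 3.09 ± 0.15 (SE), edgeR adjusted p = 3.12e-11). Itgb2 measured 0.497, 0.682, 1.18, 1.51 and 1.63 CPM and 8.74, 11.9, 13, 15.7 and 49 (19.2-fold, log2 fold change 4.26 ± 0.48 (SE), edgeR adjusted p = 7.98e-07), with 1 library at 14 d, replicate 4, well above the other 4. Without it the log2 fold change of Itgb2 was 3.57, edgeR adjusted p = 4.3e-08, and that of Itgax 4.89, edgeR adjusted p = 1.03e-07 against 5.60 with it. The microglia and macrophage markers rose beside it from a sum of 19.4 to 27.5 CPM at P63, and all 8 were called. The rise of Cdh13 lost its call with the labelled sex as a covariate (log2 fold change 1.02, edgeR adjusted p = 0.0332). The part of microglia and macrophages in the rise of these leukocyte members was not tested. Within mGfap at 14 d, 13 of 48 members were higher in astrocytes than in flow-through and 18 lower (all genes 23.3% and 23.6%). There Itgb2 was 9.1-fold lower in astrocyte libraries (edgeR adjusted p = 0.000155), the reverse of its order at 5 and 14 d in the Aldh1l1 line. Without replicate 4 its log2 difference was -3.86, edgeR adjusted p = 2.79e-06 against -3.19. By contrast Itgb8 (48.3-fold), Cdh2 (13.2-fold) and Cdh20 (8.0-fold) were higher in mGfap astrocytes than in flow-through, as in the Aldh1l1 line.

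**Figure D4:**
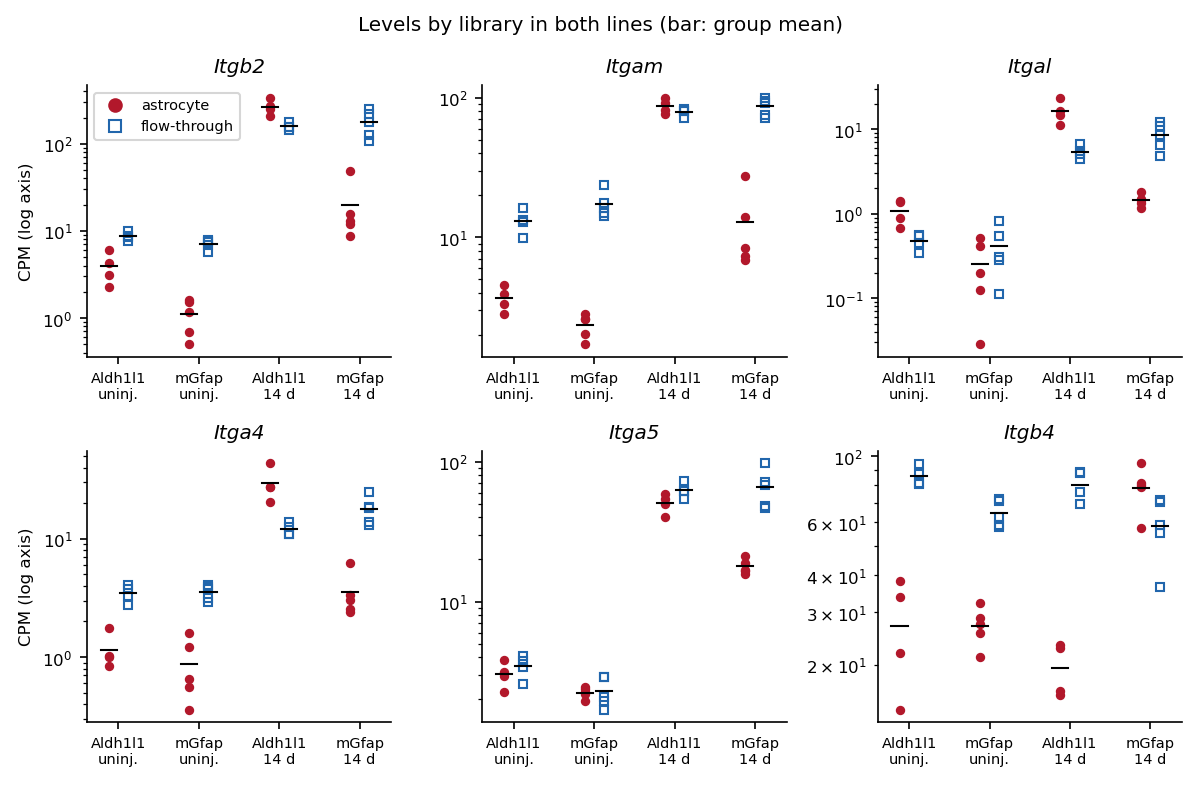
CPM by library (log axis) of 6 integrins in the Aldh1l1 and mGfap lines, uninjured and at 14 d after SCI, in astrocyte (filled) and flow-through (open) libraries, with bars at the group means (n = 4 for Aldh1l1 and n = 5 for mGfap). At 14 d, Itgb2, Itgam, Itgal and Itga4 lie lower in mGfap than in Aldh1l1 astrocyte libraries, and Itgb4 lies higher.

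Set side by side at 14 d, where all mice of both lines were labelled female, 4 members were higher in mGfap than in Aldh1l1 astrocytes and 8 lower (all genes 12% and 11.4%), and with RLE in place of TMM scaling 3 were higher and 10 lower. Higher in mGfap were Itgb4, Itga9, Cdh8 and 1 of the 5 leukocyte alpha chains. Lower in mGfap were Itgb2, Itgam, Itgax, Itgal, Itga4, Itga5, Itgb5 and Cdh5. Itgb2 was 12.8-fold lower (log2 fold change -3.68 ± 0.45 (SE), edgeR adjusted p = 3.82e-06). Without mGfap replicate 4 the log2 fold change was -4.38, edgeR adjusted p = 6.08e-09 for Itgb2 and -4.68, edgeR adjusted p = 2.08e-08 for Itgax, against -3.97 with it. The call for Cdh5 was lost without each of 14 d replicates 2 and 4 and mGfap 14 d replicates 1, 3 and 5 (adjusted p 0.01 to 0.0178). Itga4 was 8.0-fold lower (edgeR adjusted p = 3.69e-06) and Itga5 2.7-fold lower (edgeR adjusted p = 1.55e-07), against 39.9, 49.9, 53.8 and 58.8 CPM of Itga5 in the Aldh1l1 line. Itgb4 was 4.22-fold higher in mGfap (57.4, 78.9, 80.1, 81.5 and 94.9 CPM against 15.8, 16.3, 22.7 and 23.4, edgeR adjusted p = 1.47e-06). The Schwann cell markers were higher beside it, at 2861 to 6239 CPM in mGfap against 434 to 834, with all 5 called, and their part was not tested. The paper states that signatures of ependyma and of cells derived from oligodendrocyte progenitors were depleted in the Aldh1l1 line relative to mGfap. Whether such cells account for differences of members between the lines was not tested. Itgav, Itgb1, Itgb8 and Cdh2 were not called between the lines at 14 d. In uninjured cord 3 members were higher in mGfap and 12 lower (all genes 5.54% and 6.86%), but the mGfap group held both sexes and the Aldh1l1 group females only. With the labelled sex as a covariate 2 remained, Itga9 and Itgad, both higher in mGfap. The change at 14 d differed between the lines for 10 members, 4 higher and 6 lower in mGfap (all genes 7.71% and 4.94%), of which Itga5, Itga9, Itgb3, Itgb4 and Itgb5 remained with that covariate. For Itgb4 the log2 difference was 2.11 (edgeR adjusted p = 0.000103) and for Itga5 -0.94 (edgeR adjusted p = 0.00232).

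Postnatal maturation was followed in the mGfap line from P0 to P63. The comparison of P63 with P0 also sets both sexes against males. Of 48 members tested, 6 were higher at P63 than at P0 and 19 lower, beside 25.1% and 25.1% of all genes. Higher were Cdh22, Cdh20, Itga9, Itgb5, Itgb7 and Itgad. Cdh22 measured 5.41, 6.07, 12.3 and 13.5 CPM at P0 and 103, 105, 106, 112 and 115 at P63, without overlap (11.5-fold, log2 fold change 3.52 ± 0.21 (SE), edgeR adjusted p = 9.69e-14). Cdh20 measured 27.8, 71.6, 78.9 and 80.5 CPM at P0 and 157 ± 14 (SD, n = 4) CPM at P21, near its level at P63 (2.13-fold over P0, edgeR adjusted p = 1.05e-05). Itgad was at 3 counts or fewer in every P0 library and at 0.793 to 1.21 CPM at P63, which is at least 29.7-fold higher against a floor of 3 counts per library. With only P0 and P63 in the fit, Itgb5 and Itgb7 were not called (log2 fold change 0.83, edgeR adjusted p = 0.0197 for Itgb5, and log2 fold change 2.62, edgeR adjusted p = 0.0757 for Itgb7). Without P0 replicate 2 the log2 fold change of Itgb7 was 4.77, edgeR adjusted p = 6.01e-08 against 2.63. The members that fell included the laminin-binding Itga6, the shared chain Itgb1, Itgb3, Itga5 and the cadherins Cdh1, Cdh5 and Cdh6. Itgb1 measured 624, 629.7, 632 and 926 CPM at P0, 433 ± 15.2 (SD, n = 5) CPM at P14 and 172, 191, 191.6, 196 and 197 at P63, wholly below P0 (3.76-fold lower, log2 fold change -1.91 ± 0.09 (SE), edgeR adjusted p = 1.34e-15). Itgb3 measured 56.6, 76, 102 and 176 CPM at P0 and 1.09, 1.28, 1.89, 2.47 and 2.81 at P63 (54.5-fold lower, edgeR adjusted p = 4.75e-14). Itgb1 and Itgb3 did not overlap between the ages, nor did the next members. Itga6 measured 358, 436, 473 and 646 CPM at P0 and 52.2, 57.7, 63.1, 71.9 and 94.1 at P63 (7.15-fold lower, edgeR adjusted p = 2.51e-10). Without P0 replicate 3, which lay apart from its group in Cdh20 and Itgb1, the log2 fold changes were 0.86, edgeR adjusted p = 9.03e-08 for Cdh20, and -1.73, edgeR adjusted p = 2.1e-17 for Itgb1. Cdh6 measured 17.1, 27.7, 33 and 34.4 CPM at P0 and 1.33, 1.9, 2.35, 2.86 and 5.56 at P63 (10.2-fold lower, edgeR adjusted p = 7.31e-10). The Schwann cell markers summed to 7781 to 23531 CPM at P0 and 1331 to 2636 at P63 with 3 of 5 called lower. The endothelial markers summed to 39.1 to 91.7 and 8.04 to 10.7 with 5 of 5 lower, and the fibroblast and pericyte markers summed to 2159.6 to 4867 and 165 to 259.7 with 5 of 5 lower. Their part in the falls of members was not tested. The 7 astrocyte markers summed to 5384 to 14198 CPM at P0 and 38675 to 47428 at P63. The 4 oligodendrocyte markers summed to 698 to 1640 CPM at P0 and 4189 to 5934 at P63. Whether the make-up of the libraries had a part in the rises of members was not tested.

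**Figure D5:**
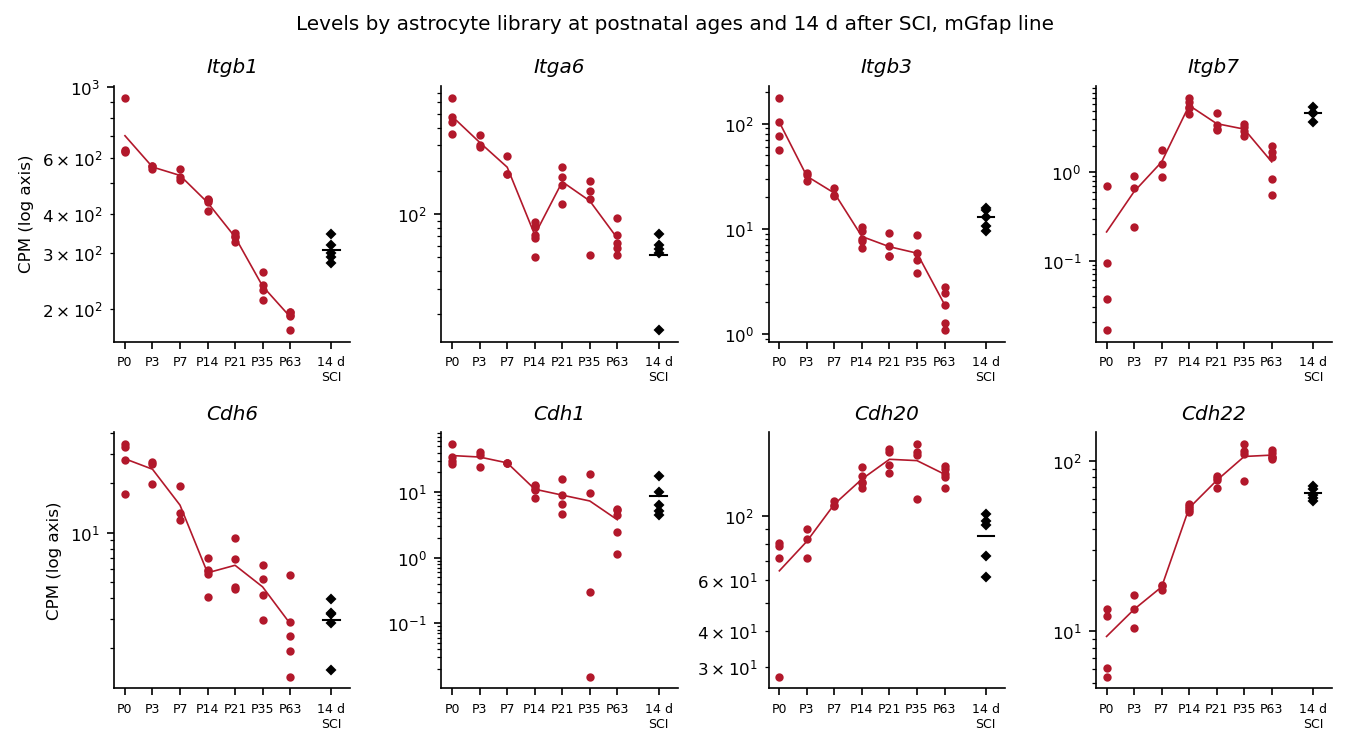
CPM by astrocyte library (log axis) of 8 members in the mGfap line at P0 to P63 (red, line through the means, n = 3 to 5 per age) and at 14 d after SCI (black diamonds, bar at the mean, n = 5). Itgb1, Itga6, Itgb3, Cdh6 and Cdh1 decline with age, Cdh20 and Cdh22 rise, and at 14 d after SCI Itgb1 and Itgb3 lie above P63 and Cdh20 and Cdh22 below it.

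Males and females were compared at 5 and 14 d in the Aldh1l1 astrocyte libraries, with time as a covariate. Of 48 members none was called by edgeR or DESeq2 (all genes 0.0227% higher and 0.0283% lower in males), and 1 had an unadjusted p under 0.05. Itgb2 measured 316, 364, 425 and 432 CPM in the 5 d male libraries, overlapping with the females, and its male against female difference was near 0 (log2 difference -0.01 ± 0.11 (SE), edgeR adjusted p = 1).

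The proteins that integrins and cadherins work with were counted in lists chosen with earlier results of these data known. Of 21 genes of the integrin adhesion complex tested, 11 rose and 6 fell in astrocyte libraries at 5 d, beside 28.7% and 28.1% of all genes (median log2 fold change 0.34, all genes -0.02). The largest changes were those of Parvg, the parvin of blood cells (from 1.28 ± 0.563 to 92.6 ± 4.83 CPM, log2 fold change 6.14 ± 0.41 (SE), edgeR adjusted p = 1.12e-12), and Fermt3, the kindlin of blood cells (from 2.54 ± 0.941 to 97.8 ± 12.6 CPM, log2 fold change 5.24 ± 0.36 (SE), edgeR adjusted p = 1.98e-12). They were followed by the actin crosslinker Actn1 (from 14.2 ± 2.5 to 109.5 ± 5.74 CPM, log2 fold change 2.92 ± 0.11 (SE), edgeR adjusted p = 7.93e-19) and zyxin (Zyx, from 35.3 ± 3.35 to 118 ± 12.4 CPM, log2 fold change 1.71 ± 0.17 (SE), edgeR adjusted p = 1.2e-09). Fermt2, the kindlin of most other tissues and named here after its values were seen, went the other way (from 247 ± 23.8 to 79.5 ± 9.72 CPM, log2 fold change -1.66 ± 0.11 (SE), edgeR adjusted p = 1.55e-13). Of the 9 genes of the cadherin-catenin complex 2 rose and 4 fell (median -0.27). The largest changes were falls of the a-catenins Ctnna2 (from 96.3 ± 8.77 to 40.6 ± 6.49 CPM, log2 fold change -1.27 ± 0.15 (SE), edgeR adjusted p = 2.23e-08) and Ctnna3 (from 42.5 ± 6.57 to 21.1 ± 3.1 CPM, log2 fold change -1.04 ± 0.15 (SE), edgeR adjusted p = 4.7e-07), which link cadherins to actin. Of 20 integrin ligands 10 rose and 2 fell (median 2.06). The ligands named below all rose, so they do not show the range of the list. Osteopontin (Spp1), a ligand of Itgav, Itga4 and Itga9 receptors, rose from 96.2 ± 64.8 to 25601 ± 2741 CPM (log2 fold change 8.03 ± 0.48 (SE), edgeR adjusted p = 1.6e-13). Thrombospondin 1 (Thbs1) rose from 5.27 ± 0.691 to 1034 ± 220.2 CPM (log2 fold change 7.59 ± 0.41 (SE), edgeR adjusted p = 3.88e-14). The a4b7 ligand Madcam1 rose from 0.0166 ± 0.0332 to 1.05 ± 0.324 CPM (log2 fold change 5.84 ± 0.98 (SE), edgeR adjusted p = 6e-06). Tgfb1, whose latent form is bound by Itgb8 receptors, rose from 5.93 ± 1.07 to 186 ± 15.5 CPM (log2 fold change 4.94 ± 0.27 (SE), edgeR adjusted p = 2.08e-14). Fibronectin (Fn1), the main ligand of Itga5 and likewise named after its values were seen, rose from 31.8 ± 24.1 to 627 ± 106 CPM (log2 fold change 4.27 ± 0.40 (SE), edgeR adjusted p = 1.19e-09). The microglia and macrophage markers rose beside these genes, at 52.1 to 108 CPM in sum uninjured and 14989 to 19511 at 5 d, with 8 of 8 called higher. The fibroblast and pericyte markers summed to 352 to 763 CPM uninjured and 934 to 1021 at 5 d, with 1 of 5 called higher and 1 lower. Their part in the levels of the partner genes was not tested. At 70 d the counts higher and lower were 7 and 4 of 21 for the adhesion complex, 2 and 2 of 9 for the catenin complex and 9 and 1 of 20 for the ligands, beside 23.9% and 21.5% of all genes.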

How the data were processed

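Per the labels and the study's methods, the authors used Trimmomatic for trimming, HISAT2 for alignment (build mm10) and featureCounts for counting per gene, and the deposited values are whole-number counts for 27179 genes in 117 libraries (70 astrocyte, 47 flow-through). Strand use in counting is not given in the sources used here, and reads of near-identical genes may be shared. Groups follow the labels.

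Counts were tested with edgeR's quasi-likelihood test (edgeR 4.0.16, R 4.3.3) after filterByExpr and TMM scaling, with Benjamini-Hochberg adjustment over all genes tested and FDR under 0.01. Each time course was 1 fit with all its times, mGfap ages were fitted together, and interactions were fitted over both fractions or both lines. P-values set a difference between groups against the spread between the libraries within groups. CPM was put on 1 TMM scale over all 117 libraries, and FPKM divides CPM by exon length, with no pseudocount. Fits were tested on simulated counts first. No 2 libraries of a group agreed within sampling noise (190 pairs, lowest chi-square per gene 22.62).

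Values in every library were given for members called at 5 d with an absolute log2 fold change of at least 1 and a group mean of at least 1 CPM (at most 10 in each direction), and for Itgb1, Itgav, Cdh2, Cdh20, Itgam, Itgb2, Cdh5 and Cdh19. Itgb5, Itgb3, Itga6, Cdh6, Cdh13, Cdh22 and the mGfap levels of Itgb4 were also given by library, chosen after their values were seen. The members and lists were chosen with earlier results of these data known. Same-numbered astrocyte and flow-through libraries come from 1 mouse by the study's procedure: their deviations from the group means correlated with a median r of 0.342 over 29 pairs (-0.117 to 0.646, 14414 genes), against -0.053 for other pairs. Across times a number is only a name (medians -0.004 in astrocyte and -0.041 in flow-through libraries).

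Alternatives were DESeq2 1.42.0, RLE scaling, other filters on low counts, FDR under 0.05, only the groups compared, the replicate number as a block, the labelled sex as a covariate where groups differed in sex, and leaving out each library in turn. Promoter sequences are RefSeq's for GRCm38.p6 and matched 33 members by symbol.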

Additional observations from a re-analysis of the deposited data

Results flagged for a closer look

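The change after SCI differed between astrocyte and flow-through libraries for 28 members at 2 d, 17 at 5 d and 11 at 70 d, and between the mGfap and Aldh1l1 lines at 14 d for 10, each by the interaction term at FDR under 0.01. At 5 d, the members with the higher change in astrocytes had log2 differences of 4.32 (Itgax), 3.65 (Itgam), 3.43 (Itgae), 3.20 (Itga4), 2.90 (Itgb2), 2.86 (Itgb7), 2.72 (Cdh13), 1.76 (Itga9), 1.57 (Itga3) and 1.28 (Itga2b). Those with the lower change had -1.56 (Itga7), -1.55 (Cdh11), -1.54 (Itgb3), -1.44 (Cdh20), -1.40 (Itgav), -1.29 (Itgb5) and -0.54 (Itgb1). Between the lines, the change was higher in mGfap for Itgb4 (2.11), Itgb3 (1.70), Cdh10 (0.91) and Cdh20 (0.87), and lower for Itga4 (-2.55), Itgam (-2.01), Itga9 (-1.16), Itgb5 (-1.11), Itga5 (-0.94) and Itgb1 (-0.60).

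Of 110 groups whose library values are given, 7 held a library far from the others by Dixon's ratio, where chance alone would pick out about 1 group in 20. In the Aldh1l1 line these were Cdh13 in uninjured replicate 1 (4.06 CPM, group median 8.01) and in 5 d replicate 3 (10.2 CPM, median 16), and Cdh2 in that same 5 d replicate 3 (102 CPM, median 130). Without it, the log2 fold change of Cdh13 at 5 d was 1.16, edgeR adjusted p = 0.000169, and that of Cdh2 was -0.45, edgeR adjusted p = 0.00404. In the mGfap line they were Cdh20 (27.8 CPM, median 75.2) and Itgb1 (926 CPM, median 631) in P0 replicate 3, Itgb1 in P63 replicate 4 (172 CPM), and Itgb2 in 14 d replicate 4 (49 CPM, median 13).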

How the results depend on the processing

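Of 8104 values of called members under the alternatives, 7672 kept their direction and stayed past the threshold, 432 kept the direction but lost the call, and 0 reversed. The 7672 include 524 values at FDR under 0.05, which come from the same fit and could not lose the call. Counts of members called moved by over 1.5 times in 5 cases. With only the groups compared in the fit, the flow-through count at 2 d was 27 in place of 41. At FDR under 0.05, the interaction count at 70 d was 17 in place of 11 and the count between lines at 14 d was 21 in place of 12, since a wider threshold admits more members. With the labelled sex as a covariate, the count between uninjured lines was 2 in place of 15 and that for the difference in change between lines was 5 in place of 10. The cause was not tested for the other cases. Leaving out each library in turn gave 25 to 29 members at 5 d in astrocytes, 20 to 25 at 42 d, 24 to 27 in flow-through at 70 d, and 10 to 14 between uninjured lines, and moved no count by over 1.5 times. Of the astrocyte members called at all 6 times, Cdh11 lost its call at 42 d without 42 d replicate 1 (adjusted p 0.0116) and Itgb1 at 70 d as given above. In flow-through, Cdh13 lost it at 2 d without uninjured flow-through replicate 3 (0.0108), and at 70 d so did Itga1 without 6 of 8 libraries (up to 0.0712), Itga9 without 7 (up to 0.0573), Itga11 without 3 (up to 0.0157), Cdh3 without 7 (up to 0.0294) and Cdh4 without 5 (up to 0.0282).

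With the replicate block, the count was 39 in flow-through at 2 d, 34 between the fractions in uninjured cord, 19 for the interaction at 5 d and 10 between uninjured lines, each within 1.5 times of the value without it. It ended the calls of Itgb6 at 2 d, Cdh7 at 5 d, Itga7 at 28 d and Itgav at 42 d in astrocytes, of Cdh12 and Itgb8 at 2 d, Itga3 at 5 d and Itga9 at 70 d in flow-through, and of Itgae between fractions in uninjured cord and Cdh23 in mGfap at 14 d. It also ended calls of Itga1, Itgb2, Itgb2l, Itgb3 and Itgbl1 between uninjured lines, of Cdh8 between lines at 14 d, of Itgb3 for the difference in change and of Cdh18 between P63 and P0, and ended no other call of a member. Between times, lines and ages the mice share only a number.

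Groups of 3 to 5 libraries limit the precision of each value, and members near or under 1 CPM, such as Cdh7, Cdh12, Cdh18 and Itgb6, lost calls at 2 or 5 d when 1 library was left out. Strand and shared reads could not be examined from counts.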

Other observations

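Flow-through libraries of male mice, which entered no test, gave values beside those of the females. At 5 d Itgb2 measured 107 to 141 CPM in the 4 male and 134 to 148 CPM in the 4 other flow-through libraries, Itgav 59.1 to 81.5 and 58.8 to 72.2 CPM, and Cdh20 15.6 to 23.5 and 20.6 to 24.7 CPM. At 14 d Itgax measured 35.2 to 43.1 CPM in male and 37.7 to 45.2 CPM in female flow-through, and Cdh1, the E-cadherin gene, 26.8 to 35.9 and 26.9 to 31.3 CPM. In mGfap flow-through, also outside the time course, Itgb2 measured 5.66 to 7.96 CPM at P63 and 107 to 252 CPM at 14 d, and Itga5 1.69 to 2.91 and 46.7 to 97.5 CPM.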
